A study of Mus musculus with 2 samples.

Results

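The genes described here encode the constant parts of mouse antibodies and the J chain that joins some antibodies into larger units. They are the 10 genes Igha, Ighm, Ighd, Ighg1, Ighg2b, Ighg2c, Igkc, Iglc1, Iglc2 and Jchain, taken by gene symbol from 52636 annotated genes counted by RNA-sequencing of liver. RNA came from C57BL/6 mice of 8 weeks on normal chow. One library, labelled HKO, was made from Mettl3 flox/flox Alb-Cre+/- livers, in which Cre under the albumin promoter removes part of Mettl3 in hepatocytes and leaves the gene whole in other cells. The other, labelled flox, was made from Mettl3 flox/flox livers without Cre, so both genotypes carry the floxed alleles. Each library pooled the RNA of 4 mice, and there was 1 library for each genotype. Every difference below therefore describes 2 libraries and has no replicate check, and differences among single mice of a pool cannot be told apart from a difference between the genotypes.

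An antibody is built of paired heavy and light chains, each with a variable part that binds antigen and a constant part that sets its class. A resting B cell makes IgM and IgD from one long transcript by splicing, and after class switching the same variable part is joined to a constant gene for IgG, IgE or IgA. Plasma cells secrete these proteins in bulk, and secreted IgA and polymeric IgM carry the J chain, through which they are recognised by the polymeric immunoglobulin receptor. In rodent liver that receptor is made by hepatocytes, which move IgA into bile.

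The heavy chain genes lie on chromosome 12 of GRCm38, all on the minus strand. Ighm (chr12:113418558-113422730) is followed by Ighd (chr12:113406604-113416324), Ighg1 (chr12:113325240-113330523), Ighg2b (chr12:113302965-113307933), Ighg2c (chr12:113285325-113288932) and Igha (chr12:113254830-113260236). The kappa light chain gene Igkc is on chromosome 6 (chr6:70726435-70726966, plus strand), the lambda genes Iglc1 (chr16:19061618-19062071) and Iglc2 (chr16:19198396-19200351) on the minus strand of chromosome 16, and Jchain on the minus strand of chromosome 5 (chr5:88519809-88527891). The ends of the secreted coding regions are shown because they set apart the classes that are compared below. Each is the last 60 coding bases, stop codon included, of the GENCODE M21 transcript whose stop lies first in the gene, and cysteine codons are in capitals.
Igha: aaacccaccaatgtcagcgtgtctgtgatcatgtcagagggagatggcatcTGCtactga
Ighm: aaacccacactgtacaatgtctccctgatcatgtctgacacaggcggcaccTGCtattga
Ighd: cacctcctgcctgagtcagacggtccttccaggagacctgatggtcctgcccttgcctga
Ighg1: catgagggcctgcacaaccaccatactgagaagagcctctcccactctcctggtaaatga
Ighg2b: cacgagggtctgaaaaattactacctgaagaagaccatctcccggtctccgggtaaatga
Ighg2c: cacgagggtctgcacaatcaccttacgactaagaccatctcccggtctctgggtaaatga
Igkc: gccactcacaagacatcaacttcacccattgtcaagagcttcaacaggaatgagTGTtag
Jchain: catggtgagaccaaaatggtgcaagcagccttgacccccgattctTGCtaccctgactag
These stretches lie at chr12:113258768-113258827 (Igha), chr12:113420867-113420926 (Ighm), chr12:113409578-113409637 (Ighd), chr12:113328976-113329035 (Ighg1), chr12:113306389-113306448 (Ighg2b), chr12:113287389-113287448 (Ighg2c), chr6:70726698-70726757 (Igkc) and chr5:88521313-88521372 (Jchain), each within 1 exon and on the strand of its gene. Igha and Ighm both have a cysteine codon at position 2 counted back from the stop, the residue through which these chains bond to the J chain, and the other 4 heavy chain genes have none in this stretch. In Igkc the last codon before the stop is a cysteine, which bonds the light chain to the heavy chain. The coding regions of Ighg2b and Ighg2c were 85.8% identical and those of Ighg1 and Ighg2b 74.9%. Still, no word of 100 bases in any of the 10 genes occurred in a transcript of another gene. Of the members, Iglc2 alone overlapped exons of another gene, the joining segment Iglj2, with 6.21% of its exonic bases.

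Annotated genes received 18438807 counts in the library labelled HKO and 21457504 in the library labelled flox, so 1 count equals 0.0542 and 0.0466 CPM, the count scaled to a library total of 1e+06. The targeted gene Mettl3 had 220 counts in the library labelled HKO and 156 in the library labelled flox. Its difference runs against the label, at 1.36-fold higher (1.11 to 1.69) with the scaling and interval described next. A gene-level count also takes reads from exons outside the deleted part and from cells without Cre. Of the exonic bases of Mettl3, 18.4% overlap exons of Tox4 on the other strand. The reason for the difference was not tested. Ratios are HKO over flox after scaling by trimmed mean of M-values (TMM) factors, with a prior of 0.5 counts. Their 95% intervals are exact binomial intervals that cover counting error only. The totals alone would give log2 ratios that are all 0.27 higher. Genes entered the comparison from a sum of 20 counts upward, and one is called past 2-fold when its log2 ratio is at least 1 in size and its interval leaves out equality. All 8 hepatocyte markers listed, Alb among them, were abundant in both libraries. All 8 had intervals below equality on the TMM scale, against 27.7% of all tested genes. The ratio of Apoa1 was 0.98 with TMM scaling and 1.18 with total counts, while the ratios of the others stayed below equality on both scales.

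Antibody transcripts were scarce in both libraries and more abundant in the library labelled HKO. The 10 genes together held 514 counts in the library labelled HKO and 295 in the library labelled flox, or 27.9 and 13.7 CPM. With TMM scaling this was a 1.68-fold difference (1.46 to 1.95), and with total counts, the scale of the CPM values, 2.03-fold. In these bulk samples more antibody-producing cells and more RNA per cell cannot be told apart. Of the 10 members 7 were tested, and Ighg1, Iglc1 and Iglc2 had too few counts. Igha and Ighg2b were called past 2-fold higher and Ighd past 2-fold lower, so 2 of 7 were higher and 1 of 7 lower. Over all 14433 tested genes 5.74% were past 2-fold higher and 4.66% lower. Among the 5552 tested genes with 20 to 300 counts, the range in which all the tested members fell, these shares were 10.3% and 8.52%. The interval lay above equality for 4 of the 7, Igha, Ighm, Ighg2b and Igkc, and below it for Ighd alone. It lay above equality for 28.3% of all tested genes and 20.6% of those with 20 to 300 counts, and below it for 27.7% and 15.0%. The median log2 ratio of the 7 tested members was 0.85, against 0.01 over all tested genes.

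**Figure D1:**
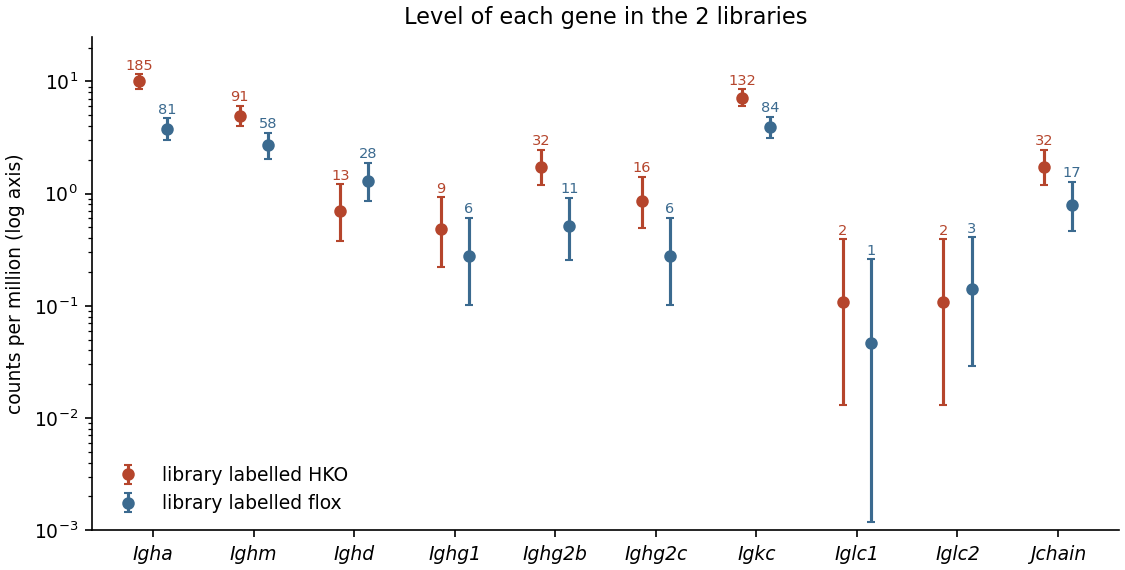
Level of each of the 10 genes in CPM (log axis) in the library labelled HKO (left point of each pair) and the library labelled flox (right point), with exact 95% Poisson intervals that cover counting error only and the raw count above each point. Igha and Igkc are the highest in both libraries, Ighd is the one gene with over 20 counts that is lower in the library labelled HKO (13 against 28), and the lambda genes have 3 counts or fewer.

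IgA showed the difference with the most counts behind it. Igha, the constant gene of the class secreted at mucosal surfaces, had 185 counts in the library labelled HKO and 81 in the library labelled flox. This was 10.03 CPM (8.64 to 11.6) against 3.77 CPM (2.998 to 4.69), and the Poisson intervals did not overlap. The fold difference was 2.20 (1.69 to 2.91) with TMM scaling and 2.65 with total counts, the scale of the CPM values. Igha was the most abundant heavy chain gene by raw count in both libraries. Per kilobase of annotated exon, Igha led in the library labelled HKO, with 3.76 CPM per kilobase against 2.62 for Ighm. In the library labelled flox these genes were level on that scale, at 1.42 for Igha and 1.43 for Ighm.

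Jchain, which encodes the small protein bonded to polymeric IgA and IgM, had 32 counts in the library labelled HKO and 17 in the library labelled flox. The 1.80-fold difference had an interval that included equality (0.981 to 3.496). That interval lay above equality with total counts, where the log2 ratio was 1.11 (0.24 to 2.07), and just above it with DESeq2 size factors. The difference of Jchain was not set apart from that of either class that uses it. Jchain counts per Igha count were 0.173 in the library labelled HKO and 0.21 in the library labelled flox, with a ratio of these ratios of 0.825 (0.417 to 1.68). Against Ighm the same quantity was 1.20 (0.584 to 2.52).

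The IgG genes were low, and as a class they were past 2-fold higher. Ighg2b, Ighg2c and Ighg1 encode the constant parts of 3 IgG subclasses, Ighg2c being the form that C57BL/6 mice carry in place of Ighg2a. Together they had 57 counts in the library labelled HKO and 23 in the library labelled flox, a 2.37-fold difference (1.45 to 4.08). Ighg2b had 32 counts in the library labelled HKO and 11 in the library labelled flox, 2.73-fold higher (1.38 to 6.19). Ighg2c had 16 and 6 counts in the libraries labelled HKO and flox. Its ratio of 2.45 had an interval that just included equality (0.959 to 8.05), and with total counts the log2 interval was 0.21 to 3.28. Ighg1 had 9 and 6 counts in the libraries labelled HKO and flox, and its interval ran from 0.461 to 4.95. Ighg2b made up 56.1% of IgG counts in the library labelled HKO (42.4 to 69.3%) and 47.8% in the library labelled flox (26.8 to 69.4%). These intervals overlapped, as did those of the other 2 subclasses. Of the remaining constant genes of chromosome 12, Ighg3 had 1 count in the library labelled HKO and 0 in the library labelled flox, and Ighe, which encodes the IgE constant part, had 0 and 2. For a count of 0 the upper bound of the exact Poisson interval is 0.2 CPM in the library labelled HKO and 0.172 CPM in the library labelled flox, and a floor of 3 counts equals 0.163 and 0.14 CPM.

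IgM was higher by less, and IgD was lower. Ighm had 91 counts in the library labelled HKO and 58 in the library labelled flox, a 1.51-fold difference (1.08 to 2.15). Ighd, whose transcript comes from the same primary RNA as that of Ighm in resting B cells, had 13 counts in the library labelled HKO and 28 in the library labelled flox. It was 2.18-fold lower (1.12 to 4.68). With total counts the log2 ratio of Ighd was −0.86, short of 2-fold, and its interval included equality (−1.96 to 0.11). IgM and IgD summed to 104 counts in the library labelled HKO and 86 in the library labelled flox, a ratio of 1.17 with an interval that included equality (0.871 to 1.57). The interval of this sum would lie above equality with total counts.

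**Figure D2:**
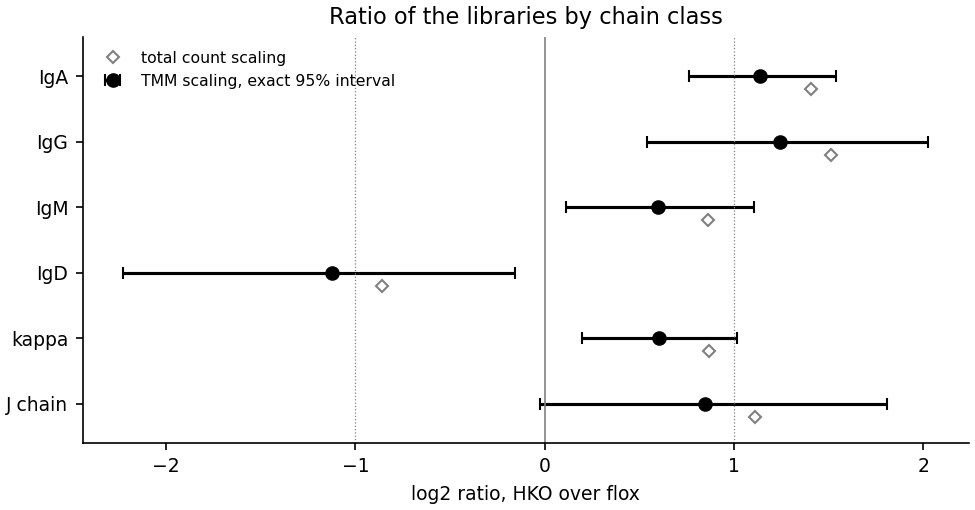
Log2 ratio of HKO over flox for each class, with TMM scaling (filled points, exact 95% intervals for counting error) and with total count scaling (open diamonds). Dotted lines mark 2-fold. IgA and IgG lie past 2-fold higher at 1.14 and 1.24, IgM and kappa near 0.60, J chain at 0.85, and IgD at −1.13 on the TMM scale and −0.86 with total counts.

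The kappa light chain was higher by less than 2-fold, and lambda was too scarce to compare. Igkc, the only kappa constant gene, had 132 counts in the library labelled HKO and 84 in the library labelled flox, a 1.52-fold difference (1.15 to 2.02). Per kilobase of exon it was the most abundant of the 10 genes in both libraries, at 13.5 CPM per kilobase in the library labelled HKO and 7.36 in the library labelled flox. The lambda genes were near the limit of detection. Iglc1 had 2 counts in the library labelled HKO and 1 in the library labelled flox, and Iglc2 had 2 and 3. With 4 counts in each library, lambda made up 2.94% of light chain counts in the library labelled HKO (0.807 to 7.36%) and 4.55% in the library labelled flox (1.25 to 11.2%). No difference in lambda was detectable at this depth. Iglc3, 96.2% identical to Iglc2 in its coding region, had 4 counts in the library labelled HKO and 1 in the library labelled flox, and Iglc4 had none in either.

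Within each library, heavy chain counts can be divided among the classes with no scaling between libraries. IgA held 53.5% of the 346 heavy chain counts of the library labelled HKO (48.1 to 58.8%) and 42.6% of the 190 of the library labelled flox (35.5 to 50.0%). IgG held 16.5% in the library labelled HKO (12.7 to 20.8%) and 12.1% in the library labelled flox (7.83 to 17.6%). IgM held 26.3% in the library labelled HKO (21.7 to 31.3%) and 30.5% in the library labelled flox (24.1 to 37.6%). For these 3 classes the intervals of the libraries overlapped. IgD held 3.76% in the library labelled HKO (2.01 to 6.34%) and 14.7% in the library labelled flox (10.02 to 20.6%), and here the intervals did not overlap. Per kilobase of annotated exon the share of IgD was 4.50% in the library labelled HKO and 17.0% in the library labelled flox. On that scale IgA and IgM were at 35.0% and 35.4% in the library labelled flox. Per kilobase of the secreted transcript, a length chosen after the values were seen, IgA held 56.7% and IgM 20.5% in the library labelled HKO, and IgA held 43.8% and IgM 23.1% in the library labelled flox. The order of IgA and IgM in the library labelled flox thus depends on which length is used.

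**Figure D3:**
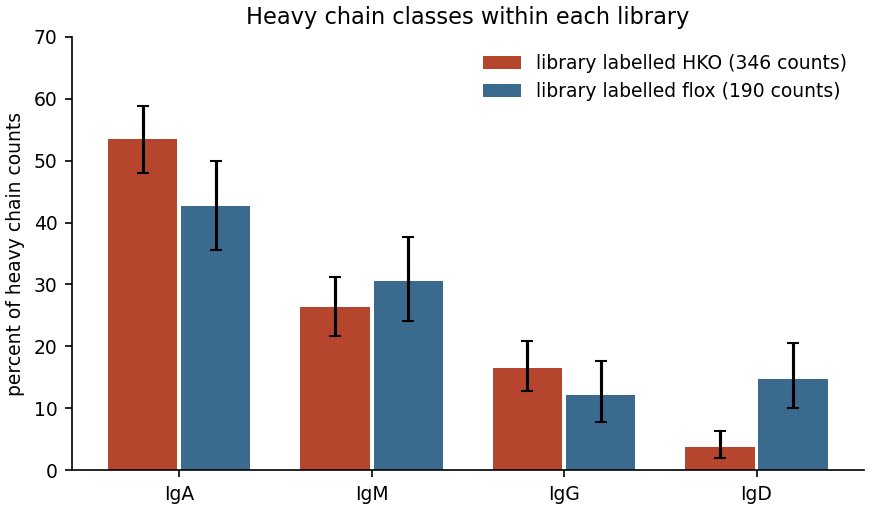
Percent of heavy chain counts held by each class in the library labelled HKO (left bars, 346 counts) and the library labelled flox (right bars, 190 counts), with exact 95% binomial intervals for counting error. IgA is the largest class in both, at 53.5% and 42.6%, and IgD is 3.76% and 14.7%.

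The differences between classes were measured as ratios of ratios, which no scaling between libraries can move. The ratio is that of 1 class to another in the library labelled HKO over the same ratio in the library labelled flox, with exact conditional 95% intervals that were not adjusted for the number of pairs. For 10 pairs among IgA, IgM, IgG, J chain and the light chains, all 10 intervals included 1. IgA over IgM was 2.03 in the library labelled HKO and 1.40 in the library labelled flox, a ratio of ratios of 1.45 (0.934 to 2.26). IgG over IgM gave 1.58 (0.849 to 2.98) and IgA over IgG 0.922 (0.506 to 1.64). IgA over kappa gave 1.45 (0.978 to 2.16), and IgM over kappa 0.998 (0.637 to 1.57). All heavy chains over all light chains gave 1.18 (0.842 to 1.64). The larger folds of IgA and IgG were thus not set apart from that of IgM by these counts, although differences of up to 2.26-fold and 2.98-fold lie within the intervals.

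IgD was lower relative to each of the 4 classes it was set against. These comparisons were added after its counts had been seen and all rest on the same 13 and 28 counts, so their unadjusted intervals describe that gene and are no separate tests. IgD over IgM was 0.143 in the library labelled HKO and 0.483 in the library labelled flox, a ratio of ratios of 0.298 (0.13 to 0.651). It was 0.204 against IgA (0.0922 to 0.432), 0.19 against IgG (0.0758 to 0.455) and 0.297 against kappa (0.133 to 0.631). IgA with IgG, the classes that need switching, had 242 and 104 counts in the libraries labelled HKO and flox. IgM with IgD, the classes made without it, had 104 and 86. The ratio of these sums was 2.33 in the library labelled HKO and 1.21 in the library labelled flox, a ratio of ratios of 1.92 (1.31 to 2.82). That value rests on IgD, since against IgM alone the ratio of ratios was 1.48 with an interval that included 1 (0.971 to 2.26).

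**Figure D4:**
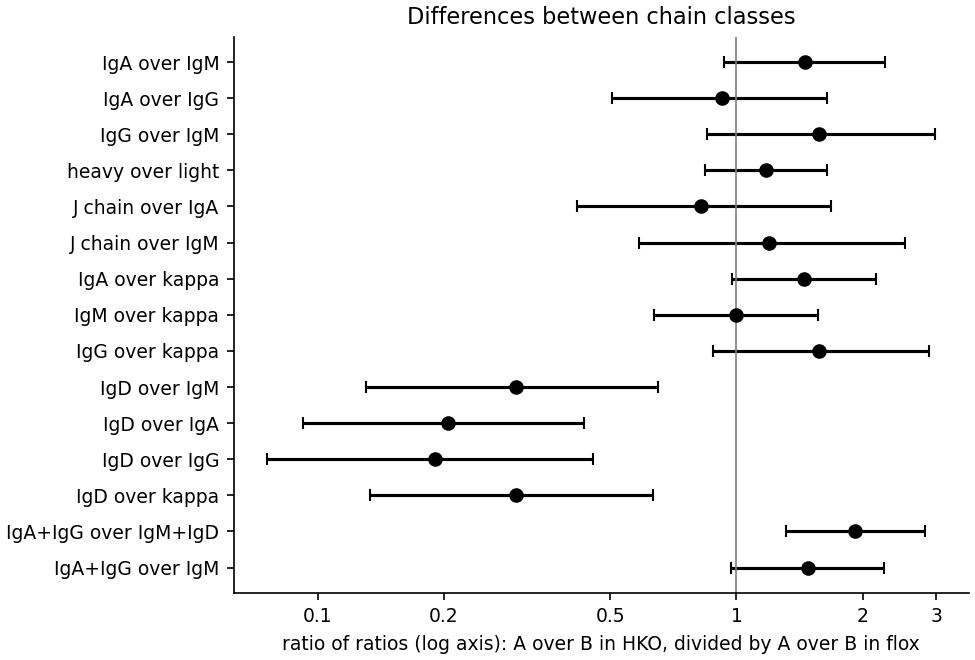
Ratios of ratios (log axis) for pairs of classes, each the ratio of the first class to the second in the library labelled HKO over that in the library labelled flox, with exact conditional 95% intervals for counting error. The 10 pairs without IgD that are drawn have intervals spanning 1, and kappa over lambda is left out for its 4 lambda counts in each library. The 4 IgD pairs lie between 0.19 and 0.298 and the sum of IgA and IgG over that of IgM and IgD at 1.92, all 5 with intervals that leave out 1.

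The variable segments form the other end of the same transcripts in the same 2 libraries, so they are no separate check on the members. They were higher in sum for the heavy chain and kappa loci. The 113 Ighv segments summed to 58 counts in the library labelled HKO and 36 in the library labelled flox, 1.55-fold (1.01 to 2.43), and the interval included equality once the larger library was thinned to the depth of the smaller (0.937 to 2.31). The 100 Igkv segments summed to 71 and 40, 1.71-fold (1.15 to 2.597), and the 3 Iglv segments to 6 and 4, with no difference detectable (0.344 to 6.99). Heavy constant counts per Ighv count were 5.97 in the library labelled HKO and 5.28 in the library labelled flox, a ratio of ratios of 1.13 (0.697 to 1.81). For kappa the same quantity was 0.886 (0.534 to 1.46). Both intervals included 1. How read pairs that span both parts were assigned is not stated.

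Counts were spread over many segments. At least 1 count was found for 50 of 216 segments in the library labelled HKO and 44 in the library labelled flox. The 21 segments found in both were 42.0% of the first list and 47.7% of the second. All segments together held 135 and 80 counts, so a segment seen in 1 library can be missed in the other. The overlap was not compared with that of other genes with similar counts, and no difference between the libraries is read from it. Ighv1-81 was the most abundant heavy chain segment, with 19 of 58 counts in the library labelled HKO, or 32.8% (21.01 to 46.3%), and 6 of 36 in the library labelled flox, or 16.7% (6.37 to 32.8%). Ighv1-56 had 0 of 58 counts in the library labelled HKO, which allows a share of up to 5.17% at a floor of 3 counts and 6.16% by the exact interval, and 6 of 36 in the library labelled flox, where the exact interval began at 6.37%. Ighv9-3 had 5 and 2. Among kappa segments, Igkv1-110 had 14 of 71 counts in the library labelled HKO and 4 of 40 in the library labelled flox, and Igkv8-30 had 11 and 1. Igkv15-103 was on the other side, with 2 and 5 counts. Segments thus lay on both sides, and of these 6 the shares of Ighv1-56 alone had intervals that did not overlap between the libraries. They nearly touched, at 6.16% and 6.37%, and were not adjusted for the number of segments.

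Genes of mature B cells, from a list that holds no immunoglobulin gene, were mixed. Of 20 such genes 10 were tested, and 1 was past 2-fold higher and 1 lower, against 5.74% and 4.66% of all tested genes. Among tested genes with 20 to 300 counts these shares were 10.3% and 8.52%. The list median log2 ratio was 0.13. The sum of the list was 566 counts in the library labelled HKO and 504 in the library labelled flox, 1.09-fold (0.962 to 1.23), an interval that would lie above equality with total counts. Ly6d, a surface protein also found outside the B lineage, was the most abundant gene of the list, with 195 counts in the library labelled HKO and 225 in the library labelled flox. Without it, a choice made after the values were seen, the sum was 371 and 279 counts, 1.29-fold with an interval above equality (1.098 to 1.51). Of the 10 tested genes 2, Bank1 and Cd37, had intervals above equality and 1, Pax5, below it. Over all tested genes these shares were 28.3% and 27.7%, and among those with 20 to 300 counts 20.6% and 15.0%. Bank1 and Cd37 both stay in the sum without Ly6d, and a sum without them was not computed. Bank1, a signalling scaffold of B cells, had 52 counts in the library labelled HKO and 21 in the library labelled flox, 2.36-fold higher (1.42 to 4.19). Pax5, the factor that holds B cell identity and is shut off in plasma cells, had 4 and 17 counts, 4.02-fold lower (1.43 to 17.9). The parts of the B cell receptor that signal, Cd79a and Cd79b, had 24 and 27 counts in the library labelled HKO and 26 and 14 in the library labelled flox, and both intervals included equality. The same was true of the inhibitory coreceptor gene Cd22, with 21 and 25 counts in the libraries labelled HKO and flox, and of the transcription factor gene Spib, with 17 and 30. The interval of Cd79b would lie above equality with total counts. Cd37, a tetraspanin, had 122 and 64 counts, 1.84-fold (1.35 to 2.54). Ms4a1, which encodes CD20, had 10 and 5 counts.

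Genes of plasma cells divided into scarce ones that define the cell and abundant ones of the secretory pathway that hepatocytes also use. Mzb1, a chaperone of antibody assembly, had 4 counts in each library, and Tnfrsf17, the survival receptor BCMA, had 0 in both. The factor genes Prdm1 and Irf4 had 10 and 5 counts in the library labelled HKO and 9 and 2 in the library labelled flox. Pou2af1 had 13 and 18 counts in the libraries labelled HKO and flox. No difference in these 5 genes was detectable at this depth. Of the 15 genes listed 9 were tested, and none was past 2-fold higher and 2 were lower, against 5.74% and 4.66% of all tested genes. The median log2 ratio of the list was −0.44. Over all tested genes the interval lay above equality for 28.3% and below it for 27.7%. Among the 9 genes of this list it lay above equality for 3 and below it for 4. Those above were Sdc1, Fkbp11, a prolyl isomerase of the secretory pathway (338 and 202 counts in the libraries labelled HKO and flox, 1.62-fold, 1.36 to 1.94), and Txndc5, a disulfide isomerase (3913 and 3490 counts, 1.085-fold, 1.04 to 1.13). The genes past 2-fold lower were Derl3, which feeds misfolded proteins to degradation (28 and 147 counts in the libraries labelled HKO and flox, 5.35-fold lower, 3.605 to 8.45), and Creld2, a stress-induced protein of the endoplasmic reticulum (372 and 857 counts, 2.38-fold lower, 2.11 to 2.697), though with total counts the log2 ratio of Creld2 is −0.98, short of 2-fold. Xbp1, the factor of the secretory programme, had 3211 and 4226 counts, and Sdc1, a plasma cell surface marker also made by hepatocytes, 9531 and 6973. In the list for early B cell development Rag1, Rag2, Vpreb2 and Igll1 had no count in either library and Vpreb1 had 0 and 1.

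Receptors that bind antibodies were mixed. Of 12 receptor genes 8 were tested, 2 passed 2-fold upward and 0 downward, against 5.74% and 4.66% of all tested genes. Their median log2 ratio was 0.74. The activating Fc gamma receptor genes, which macrophages are known to express, had intervals above equality. Fcgr1 had 108 and 43 counts in the libraries labelled HKO and flox, 2.41-fold (1.69 to 3.54), Fcgr4 123 and 61, 1.94-fold (1.42 to 2.697), and Fcgr3 180 and 110, 1.58-fold (1.24 to 2.02). Fcer1g, their signalling chain, had 280 and 154, 1.76-fold (1.44 to 2.15). Trim21, an antibody receptor inside cells that interferon induces, had 232 and 100 counts, 2.24-fold higher (1.77 to 2.87). The inhibitory receptor Fcgr2b, which liver endothelium makes in quantity, had 833 and 851 counts. Its interval included equality, though it would lie above it with total counts. Pigr, the polymeric immunoglobulin receptor of hepatocytes, had 35308 counts in the library labelled HKO and 33658 in the library labelled flox. Its ratio of 1.015 had an interval that just included equality (0.9996 to 1.03). That interval would lie above equality with DESeq2 size factors or total counts, where the log2 ratio was 0.29. Fcgrt, the neonatal Fc receptor that spares IgG from breakdown, had 3605 and 4466 counts, 1.28-fold lower (1.22 to 1.34), though its log2 ratio of −0.36 becomes −0.09 with total counts.

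**Figure D5:**
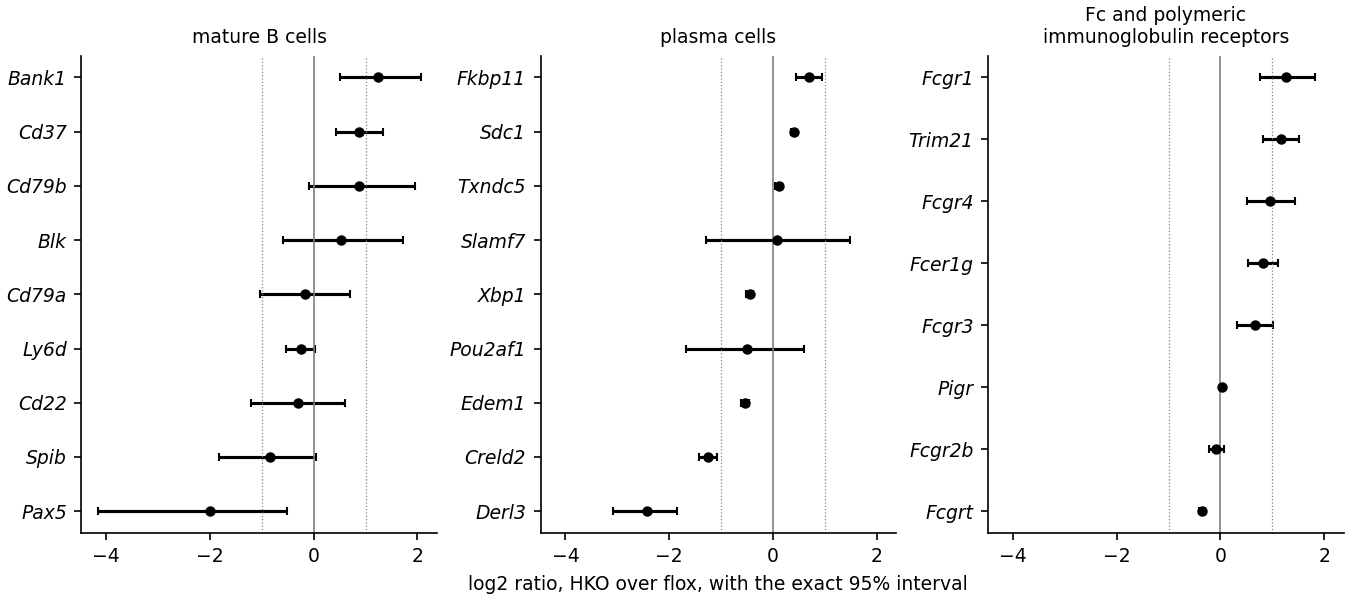
Log2 ratio of HKO over flox, TMM scaling, for tested genes of 3 lists (9 of the 10 B cell genes are drawn), with exact 95% intervals for counting error and dotted lines at 2-fold. B cell genes lie on both sides of 0 from Pax5 (lowest) to Bank1 (highest), plasma cell genes run from Derl3 (lowest) to Fkbp11, and Fcgr1, Trim21, Fcgr4, Fcer1g and Fcgr3 lie above 0 with Pigr and Fcgr2b near 0 and Fcgrt below.

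The marker lists of macrophages, monocytes, NK cells and dendritic cells were also higher in sum in the library labelled HKO. That of T cells was not set apart on the TMM scale. All 10 Kupffer cell and macrophage genes listed had intervals above equality, 2 of them past 2-fold higher. Among all tested genes these shares were 28.3% and 5.74%. The macrophage list summed to 15832 counts in the library labelled HKO and 10463 in the library labelled flox, 1.46-fold. The 5 monocyte genes summed to 275 and 118 counts, 2.25-fold (1.81 to 2.82). The 6 dendritic cell genes summed to 184 and 102 counts, 1.74-fold (1.36 to 2.245). The 7 NK cell genes summed to 54 and 29 counts, 1.79-fold (1.13 to 2.93), of which Gzma held 18 and 3. The 12 T cell genes summed to 97 and 77 counts, 1.22-fold with an interval that included equality (0.894 to 1.66). The interval of this sum would lie above equality with total counts. Only 2 genes of that list had enough counts to be tested, and neither was past 2-fold. The 2 most abundant genes of that list were Cd4 and Lck. Cd4 had 16 and 23 counts in the libraries labelled HKO and flox and Lck 23 and 14, and both intervals included equality. The part of these cells in the antibody differences was not tested.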

How the data were processed

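RNA-sequencing counts from 2 liver libraries, each pooled from 4 mice, were analysed. The deposited values are whole-number counts of reads per gene made by the authors and not normalised. The submitters' processing notes name TopHat2, HTSeq 0.6.1 and GRCm38, while the methods of the study name Hisat2 for alignment, and which aligner made the files is not known. Strand and overlap settings of the counting are not given in the sources used here. Copies made by PCR count as reads. Of 52947 rows, 311 unannotated loci (0.261% and 0.328% of counts in the libraries labelled HKO and flox) were left out. GENCODE M21 gave symbols, positions and sequences, and 233 identifiers did not match it, with 0.0354% and 0.0352% of counts.

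Scaling factors came from edgeR 4.0.16 and, as an alternative, DESeq2 1.42.0 in R 4.3.3, which served for no test. Ratios, exact binomial (Clopper-Pearson) and Poisson intervals and conditional odds ratios were computed with Python 3.11.15, NumPy 2.4.6, pandas 2.3.3 and SciPy 1.17.1, identities with Biopython 1.88 and figures with matplotlib 3.10.9. The steps were tested on simulated data. With 1 library for each genotype no p-value was computed. The members and the 15 companion lists were chosen with earlier results of these data known. Genes named are the members, the other constant genes, Mettl3, any gene of the B cell, plasma cell and receptor lists, up to 4 genes past 2-fold of each other list or its 2 most abundant, and the 3 most abundant variable segments of a locus. Genes at 0 in a list are also named. Some genes that count in the lists are not reported here by name. The genes of the early B cell list were named after their values were seen. Alternatives covered scaling, prior, count minimum, fold limit, interval, class membership, gene length and depth.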

Additional observations from a re-analysis of the deposited data

How the results depend on the processing

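The log2 ratios of 6 of the 7 classes kept their direction under every scaling, prior and depth tried. Lambda, with 4 counts in each library, had −0.05 with TMM factors, 0.22 with total counts and 0.58 with Iglc3 and Iglc4 added. The interval of J chain left out equality with total counts, DESeq2 factors and thinning, and that of IgD included it with total counts. No ratio of ratios changed whether its interval held 1, and those that crossed 1 were kappa over lambda (0.982 with Iglc3 and Iglc4) and IgM over kappa (1.01 with thinning). Members past 2-fold numbered 2 higher and 1 lower, and 4 and 0 with total counts, 1 and 0 with at least 100 counts, 4 higher at 1.5-fold, and 0 and 0 at 3-fold. Over all genes 828 were higher and 672 lower, against 1504 and 409 with total counts, 458 and 316 with at least 100 counts, 1872 and 1488 at 1.5-fold and 277 and 258 at 3-fold. With Wilson in place of exact binomial intervals 3 members were higher and 1 lower, and 854 and 693 of all genes. Per kilobase of annotated exon, IgA held 45.6% and 35.0% of heavy chain reads in the libraries labelled HKO and flox and IgM 31.8% in the library labelled HKO. Per kilobase of the secreted transcript, chosen after the values were seen, IgA held 56.7% and 43.8%, IgM 20.5% and 23.1%, and IgD 20.7% in the library labelled flox. No paired analysis was possible because each genotype had 1 library. Depth limits the lambda genes, Ighg3, Ighe and Ighg1 most. No library could be left out.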

Other observations

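Other lists that bear on where antibodies are made and on which cells the livers held were also counted. Their numbers past 2-fold stand beside shares of 5.74% higher and 4.66% lower over all tested genes. Of 12 genes for class switching and IgA homing 5 were tested, none was past 2-fold, and the median log2 ratio was 0.29. The 2 most abundant were the repair gene Ung, with 388 counts in the library labelled HKO and 312 in the library labelled flox, and Tgfb1, with 239 and 187. Of 6 genes of early B cell development only Dntt was tested (10 and 11 counts).

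Of 7 NK cell genes 2 were tested, and Gzma alone was past 2-fold higher. It had 18 and 3 counts in the libraries labelled HKO and flox, 5.11-fold (1.69 to 30.8). Of 6 dendritic cell genes 3 were tested and 2 were past 2-fold higher, Itgax (61 and 11 counts) and Siglech (17 and 5). Of the macrophage genes Marco (530 and 178) and Vsig4 (783 and 341) were past 2-fold higher. Of 5 monocyte genes 3 were tested, and Ccr2 (59 and 17) and Ly6c2 (23 and 2) were past 2-fold higher. Neutrophil genes summed to 20 and 21 counts, with none tested. None of 5 tested erythroid genes was past 2-fold, and Hbb-bs had 1949 and 1992 counts. Of 5 bile duct genes 1 was past 2-fold higher, Sox9 (404 and 94), and 2 lower, Krt19 (165 and 731) and Krt7 (38 and 100). Of 8 intestinal and pancreatic genes 4 were tested and 3 were past 2-fold lower, Cela1 (142 and 428), Ctrb1 (73 and 331) and Vil1 (22 and 73). Cpa1, Prss2 and Reg3g had no count in either library. None of 8 hepatocyte genes was past 2-fold, and Alb had 886277 and 1460053 counts.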
